A study of Homo sapiens with 14 samples.

Results

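The SAP30-KO and SIN3A+SIN3B-DKO derivatives of MDA-MB-231, an established human triple-negative breast cancer line, were compared directly by RNA-Seq. All 4 SAP30-KO libraries (SAP30-KO1 and SAP30-KO2, replicates 1 and 2 of each) were set against all 4 SIN3A+SIN3B-DKO libraries (SIN3A+SIN3B-DKO1 and SIN3A+SIN3B-DKO2, replicates 1 and 2 of each), which makes 8 of the 14 libraries of the study. They were selected by the genotype in their labels. The 2 libraries of unedited parental cells served as a reference level. Together with the libraries of the edited lines MLL1-KO1 and MLL1-KO2, which are not described here, they also entered the filter on low values and the estimate of spread. The study asked whether SAP30 acts on transcription through the SIN3 complex, and the direct comparison asks at which genes loss of SAP30 and loss of both SIN3 scaffolds left different RNA levels. The SAP30-KO lines carried CRISPR/Cas9 edits of SAP30, for which 2 independent sgRNAs were used. The SIN3A+SIN3B-DKO lines carried edits of both SIN3A and SIN3B, made with 1 sgRNA for each gene. All lines were grown without treatment. Each line was a mix of several single-cell KO clones, so it was neither 1 clone nor an unselected population. Loss of the proteins had been checked by immunoblot.

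The SIN3 complex is a chromatin complex that carries the histone deacetylases HDAC1 and HDAC2 and is brought to genes by DNA-binding proteins such as the MAD family of MYC antagonists. SIN3A and SIN3B are its scaffolds, large proteins with paired amphipathic helices on which the other subunits assemble. SAP30 is a small subunit that binds SIN3 and helps to hold the deacetylases in the complex, and vertebrates also have a related gene, SAP30L.

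The deposited values were used as TPM (reads per gene scaled for gene length and for the total of the library). The recovered reads numbered from 20040846 to 23162682 in the 8 libraries. The fit was made on log2(TPM + 0.5) with limma across all 14 libraries, and 13540 genes passed the filter of at least 1 TPM in at least 2 libraries. Among the SAP30-KO, SIN3A+SIN3B-DKO and parental libraries, BATF, PRRX1, EGF, IFI44L and HOXA13 met this minimum only through SAP30-KO. TGIF2LX, RNF43, AREG, COL5A2, CNN1 and DCAF8L1 met it only through SIN3A+SIN3B-DKO. For such genes the filter favoured the direction found, so their calls are a description. A difference is given as SAP30-KO minus SIN3A+SIN3B-DKO on this log2 scale, on which differences of low genes come out too small. Calls required at least a 1.5-fold difference and an adjusted p (Benjamini-Hochberg, over all genes) under 0.05. The labels do not say that replicates came from separate cultures, so the p-values measure the spread between libraries of 1 line, which may be technical. SIN3A+SIN3B-DKO2 was the line whose replicates differed most, where a chi-square test of their reads gave 8.21 per degree of freedom against 1.48 to 3.85 in the other 3 lines. The first principal component of the 8 libraries took 43.8% of the variance and separated the genotypes, and the second took 16.8% and separated SIN3A+SIN3B-DKO1 from SIN3A+SIN3B-DKO2, with SIN3A+SIN3B-DKO2 replicate 2 farthest out. Without that library 594 genes were higher and 478 lower in SAP30-KO, against 572 and 440 with it. TPM of a library have a fixed sum, so a rise of abundant genes lowers all others, and in bulk RNA fewer cells with a transcript and less of it per cell cannot be told apart.

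The targeted genes were examined first. SAP30, at chr4:174291120-174298683 in GRCh37 on 4q, read 3.13, 3.72, 4.96 and 2.75 TPM in the SAP30-KO libraries (SAP30-KO1 replicates 1 and 2, then SAP30-KO2 replicates 1 and 2, the order used throughout) and 73.1, 75.6, 72.5 and 66.1 TPM in the SIN3A+SIN3B-DKO libraries (in the same order of lines and replicates). Every SAP30-KO library lay far below every SIN3A+SIN3B-DKO library, which sat a little under the 78.9 and 82.8 TPM of parental cells. The log2 difference of -4.15 (SE 0.13, adjusted p = 2.9e-09) was the largest of all genes in that direction. SIN3B, at chr19:16940209-16991164 on 19p, read 65.5, 63.5, 67.1 and 66.6 TPM in SAP30-KO and 50.2, 49, 49.7 and 43.5 TPM in SIN3A+SIN3B-DKO, against 75.1 and 77.4 TPM in parental cells. The genotypes did not overlap, but the log2 difference of 0.45 (SE 0.04, adjusted p = 5e-06) was under the fold minimum. SIN3A, at chr15:75661720-75748183 on 15q, read 49.2, 48.4, 48.8 and 49.2 TPM in SAP30-KO and 60.6, 62.5, 55.1 and 55.2 TPM in the libraries labelled SIN3A+SIN3B-DKO, so that its RNA was not lower in the lines in which it was targeted. The log2 difference of -0.25 (SE 0.03, adjusted p = 2.1e-05) was likewise under the fold minimum. An edit can stop a protein without lowering its RNA, so this level does not check the label for SIN3A, and SIN3A+SIN3B-DKO stands below for the libraries labelled so.

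The 2 genotypes differed at 1012 genes, or 7.47% of the 13540 tested. Of these, 572 (4.22%) were higher in SAP30-KO and 440 (3.25%) were lower. Most differences were moderate, with a median of 1.77-fold among the higher genes and 1.68-fold among the lower ones. At least 2-fold differences were seen at 183 higher and 105 lower genes, and at least 4-fold ones at 23 and 14. Across all genes tested the median difference was 0.02. All 4 libraries of 1 genotype lay above all 4 of the other at 914 of the 1012 called genes, in a table where this held for 35.6% of all genes tested. With the line as the unit of the fit (n = 2 lines per genotype), 346 genes (2.56%) were higher and 326 (2.41%) lower, of which 335 and 310 were among those called above.

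**Figure D1:**
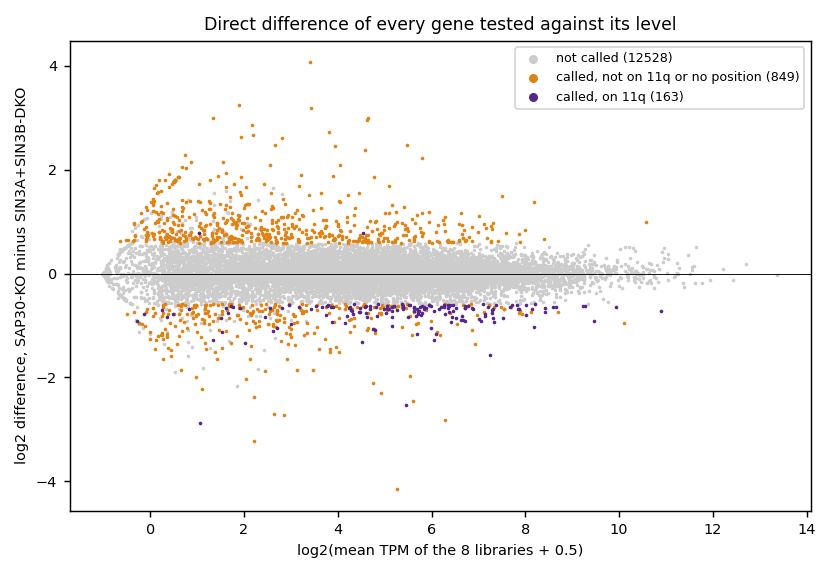
Difference of each of the 13540 genes tested (SAP30-KO minus SIN3A+SIN3B-DKO, log2) against log2 of its mean TPM + 0.5 over the 8 libraries. Called genes are orange, or purple where their matched position is on chromosome arm 11q, and genes without a matched position are orange. The purple points sit almost all below 0 (161 of the 163), while the orange points lie on both sides of 0.

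Each SAP30-KO line was also set against each SIN3A+SIN3B-DKO line. SAP30-KO1 had 641 genes higher and 505 lower than SIN3A+SIN3B-DKO1 (8.46% in both directions together), and 585 higher and 415 lower than SIN3A+SIN3B-DKO2 (7.39%). SAP30-KO2 had 606 higher and 546 lower than SIN3A+SIN3B-DKO1 (8.51%), and 604 higher and 461 lower than SIN3A+SIN3B-DKO2 (7.87%). A set of 259 genes was higher in all 4 of these pairs of lines (1.91%) and 213 were lower in all 4 (1.57%). Within a genotype far fewer genes separated the lines. The SAP30-KO lines were apart at 20 genes (0.148%), whereas SIN3A+SIN3B-DKO1 and SIN3A+SIN3B-DKO2 differed at 302 (2.23%), 165 of them higher in SIN3A+SIN3B-DKO1. The count of 20 was 2 without SAP30-KO1 replicate 1, 5 without its replicate 2 or without SAP30-KO2 replicate 1, 6 without SAP30-KO2 replicate 2, 11 without either library of SIN3A+SIN3B-DKO1 and 6 with only the 8 libraries compared.

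The parental libraries place these differences. Each genotype was compared with the same 2 parental libraries, so the 2 sets of values below share their controls. Genes higher in SAP30-KO than in SIN3A+SIN3B-DKO had a median log2 difference from parental of 0.40 in SAP30-KO and of -0.40 in SIN3A+SIN3B-DKO. Parental lay between the genotypes at 278 of these genes, above both at 154 and below both at 140. Genes lower in SAP30-KO had a median log2 difference from parental of -0.56 in SAP30-KO and 0.21 in SIN3A+SIN3B-DKO. Parental lay between the genotypes at 213 of them, above both at 159 and below both at 68.

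A total of 12 genes were followed in each direction by a fixed rule, being those with the largest differences that were also called with the line as the unit, did not overlap between the genotypes and reached a mean of 5 TPM. DCAF8L2, an X-linked gene related to a substrate receptor of the CUL4 ubiquitin ligase (chrX:27608461-27768059), read 18.4, 20, 20.3 and 18.1 TPM in SAP30-KO and 2.11, 2.39, 0 and 0 TPM in SIN3A+SIN3B-DKO. It stood near 1 TPM in parental cells (0.829 and 0.922) and was not detected in either library of SIN3A+SIN3B-DKO2, which gave a log2 difference of 4.07 (SE 0.09, adjusted p = 3e-10). BATF, a transcription factor of the AP-1 family best known in lymphocytes (chr14:75988798-76013336), showed a like pattern. Its level was 5.62, 6.58, 6.37 and 6.23 TPM in SAP30-KO and 0.376, 0.657, 0 and 0 TPM in SIN3A+SIN3B-DKO, against 0.296 and 0.304 TPM in parental cells. Both genes were above parental in SIN3A+SIN3B-DKO1 and at 0 in SIN3A+SIN3B-DKO2. The log2 difference of BATF was 3.24 (SE 0.16, adjusted p = 8.6e-08) and was called in all 4 pairs of lines. Of the libraries given here only those of SAP30-KO reached 1 TPM for BATF, so the filter favoured this direction and the call is a description.

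EEF1A2, the elongation factor isoform normally made in muscle and brain (chr20:62119366-62130592), differed in the other way from parental. It read 21.8, 19.5, 16 and 18 TPM in SAP30-KO, 13.9 and 13.1 TPM in parental and only 1.53, 2.15, 1.83 and 1.09 TPM in SIN3A+SIN3B-DKO. The SAP30-KO libraries were somewhat above parental and the SIN3A+SIN3B-DKO libraries far below both, with a log2 difference of 3.19 (SE 0.13, adjusted p = 1.9e-08). ITGB4, the integrin beta-4 chain of hemidesmosomes (chr17:73717408-73753899), read 23.9, 20.9, 29.5 and 30.4 TPM in SAP30-KO and 7.13, 6.18, 5.16 and 4.69 TPM in SIN3A+SIN3B-DKO, and both genotypes lay below the 59.9 and 61.2 TPM of parental cells. The log2 difference of 2.08 (SE 0.05, adjusted p = 1e-09) corresponds to a ratio of mean TPM of 4.52. KLF13, a Krüppel-like transcription factor (chr15:31619038-31727868), was even within each genotype, at 6.03, 5.86, 4.89 and 5.21 TPM in SAP30-KO and 1.21, 1.05, 1.22 and 1.09 TPM in SIN3A+SIN3B-DKO, with 7.10 and 7.6 TPM in parental cells. SHISA3, an antagonist of WNT and FGF receptor maturation, and ADIRF, a small protein first described in adipocytes, also lay near or above parental in SAP30-KO and under it in SIN3A+SIN3B-DKO, with mean levels of 22.8 ± 2.62 (SD, n = 4) against 5.99 ± 1.80 (SD, n = 4) TPM for SHISA3 and of 14.1 ± 2.87 (SD, n = 4) against 3.40 ± 0.508 (SD, n = 4) TPM for ADIRF.

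The remaining genes of this group were raised over parental in SAP30-KO. CST2, a secreted cystatin that inhibits cysteine proteases (chr20:23804406-23807366), read 81.3, 81, 64.3 and 70.2 TPM in SAP30-KO and 17, 15.5, 9.41 and 11.2 TPM in SIN3A+SIN3B-DKO, both above the 5.01 and 4.11 TPM of parental cells. SAP30-KO exceeded SIN3A+SIN3B-DKO by 2.47 (SE 0.13, adjusted p = 1.1e-07). SLC12A7, a potassium-chloride cotransporter, read 7.18, 7.90, 7.6 and 6.70 TPM in SAP30-KO and 0.244, 0.163, 1.34 and 1.05 TPM in SIN3A+SIN3B-DKO, a ratio of means of 10.5. GABRE, the epsilon subunit of the GABA-A receptor, had a ratio of means of 10.5 and IGSF3, an immunoglobulin-domain membrane protein, one of 7.14. GSTM2, a glutathione transferase, had one of 4.87, but GSTM2 and CST2 have close paralogs, and how reads that match several copies were counted is not given in the sources used here.

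Among the genes lower in SAP30-KO, SAP30 itself ranked first. IL24, a cytokine of the IL-10 family (chr1:207070788-207077484), read 21.5, 24.2, 14.7 and 15.4 TPM in SAP30-KO and 146, 166, 138 and 94 TPM in SIN3A+SIN3B-DKO, against 6.68 and 4.69 TPM in parental cells. Both genotypes stood above parental and the SIN3A+SIN3B-DKO libraries above all SAP30-KO libraries, by a ratio of means of 7.18 (log2 difference -2.81, SE 0.12, adjusted p = 3.2e-08). IL8 (also called CXCL8), the chemokine that attracts neutrophils, was raised over parental in SIN3A+SIN3B-DKO alone of the 2 genotypes. It read 18.6, 18.2, 10.7 and 10.6 TPM in SAP30-KO and 98.5, 98.8, 75.8 and 52.5 TPM in SIN3A+SIN3B-DKO, with 18.9 and 17.8 TPM in parental cells, and the log2 difference of -2.45 (SE 0.09, adjusted p = 7.1e-09) held although the lines of each genotype also differed from each other. CD22, a sialic acid-binding receptor of B cells, behaved likewise, with 7.09, 7.32, 6.33 and 6.79 TPM in SAP30-KO, 20.1, 20.1, 21.5 and 20.3 TPM in SIN3A+SIN3B-DKO and 6.38 and 6.29 TPM in parental cells. TGIF2LX, a homeobox gene known from testis, had 2 or 3 reads in each SAP30-KO library and was at least 17.4-fold higher in SIN3A+SIN3B-DKO, taking 3 reads per library as the floor. VSTM1, an inhibitory receptor of leukocytes, and KRTAP2-3, a keratin-associated protein, were likewise above parental in SIN3A+SIN3B-DKO, with direct differences of -1.88 and -1.86.

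A second set of the lower genes had fallen from parental in SAP30-KO. FBLIM1, a filamin-binding adaptor of cell-matrix adhesions (chr1:16083102-16113089), read 0.958, 1.5, 1.11 and 1.10 TPM in SAP30-KO, 10.6, 11.2, 9.19 and 10.4 TPM in SIN3A+SIN3B-DKO and 28.4 and 27.5 TPM in parental cells. LSR, a receptor of tricellular junctions, had the same order, with means of 0.972 ± 0.222 (SD, n = 4) TPM in SAP30-KO and 7.33 ± 2.20 (SD, n = 4) TPM in SIN3A+SIN3B-DKO. MAGEC1, a cancer-testis antigen, was 2.22, 1.40, 0.942 and 0.96 TPM in SAP30-KO and 8.01, 9.14, 16.2 and 15 TPM in SIN3A+SIN3B-DKO, where it lay close to the 13.8 and 13.3 TPM of parental cells. TAGLN, the actin-binding protein transgelin (chr11:117070086-117078180), read 14.3, 13.5, 11.5 and 10.3 TPM in SAP30-KO and 86.6, 83.8, 61.3 and 65.5 TPM in SIN3A+SIN3B-DKO, with a log2 difference of -2.53 (SE 0.05, adjusted p = 3e-10). MCAM, the adhesion molecule CD146 (chr11:119179239-119192231), read 86.6, 83.1, 69.6 and 67.9 TPM in SAP30-KO and 223, 225, 238 and 217 TPM in SIN3A+SIN3B-DKO. TAGLN and MCAM lie on 11q, where 92.5% of the genes tested had differences below 0, and after a running median of 51 neighbouring genes was subtracted they were still called, at log2 differences of -1.96 and -1.02. 

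**Figure D2:**
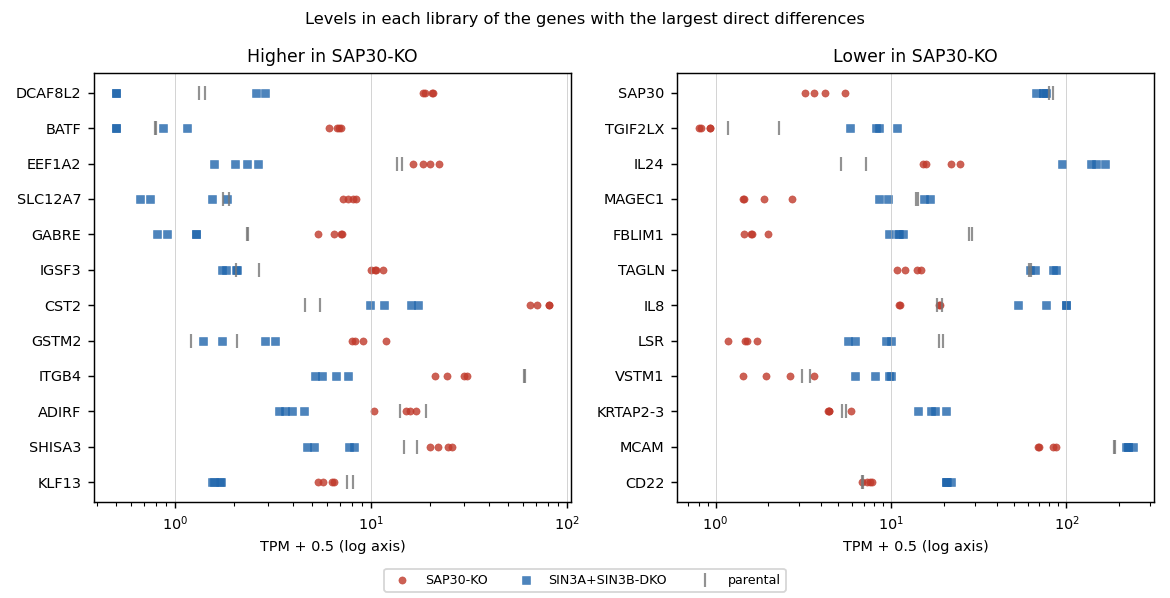
TPM + 0.5 on a log axis in each library for the 12 genes named in each direction, with SAP30-KO as circles, SIN3A+SIN3B-DKO as squares and parental as bars. The circles and squares of a gene never overlap, which the rule for naming these genes required. The parental bars fall next to the squares (DCAF8L2, MAGEC1), next to the circles (EEF1A2, CD22) or outside both (ITGB4, IL24).

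Interferon-stimulated genes are antiviral genes switched on through interferon receptors and STAT proteins, and those that were called were higher in SAP30-KO. Of 41 tested, 9 were called higher and 0 lower, or 22.0%, and 5 of the 9 were called in all 4 pairs of lines. Over all genes tested 7.47% were called, with 4.22% higher and 3.25% lower. In all 4 pairs of lines 1.91% were higher and 1.57% lower. These are the shares to set beside the counts of this list and of those below. In this and the hypoxia list all called members are described, which goes beyond the naming rule and was decided after their values were seen. The median difference of the 41 was 0.44 against 0.02 for all genes tested. IFITM1, which blocks viral entry at membranes, read 28.1, 31.5, 35.7 and 32.3 TPM in SAP30-KO and 12.3, 12.1, 9.11 and 9.14 TPM in SIN3A+SIN3B-DKO, with a log2 difference of 1.55 (SE 0.06, adjusted p = 1.6e-08). Both genotypes lay below parental for this gene (63.2 and 57.7 TPM). The oligoadenylate synthetases, which make the activator of RNase L, lay above parental in SAP30-KO. OAS2 read 24.4, 25, 21.8 and 22.7 TPM in SAP30-KO, 8.30, 9.33, 7.95 and 9.36 TPM in SIN3A+SIN3B-DKO and 9.69 and 11.2 TPM in parental, with a log2 difference of 1.38 (SE 0.07, adjusted p = 6.9e-08). OAS1 read 26.4, 29.2, 20.8 and 22 TPM in SAP30-KO and 12.3, 12.4, 10.5 and 9.82 TPM in SIN3A+SIN3B-DKO, and OAS3 read 31.7, 30.7, 33.2 and 31.1 TPM in SAP30-KO and 19.2, 18.9, 14.4 and 15.1 TPM in SIN3A+SIN3B-DKO. All 4 SAP30-KO libraries were above all 4 SIN3A+SIN3B-DKO libraries for each of the 3 synthetases, and 35.6% of all genes tested were separated so in either direction. IRF7, the transcription factor that amplifies interferon production, had mean levels of 8.89 ± 0.459 (SD, n = 4) TPM in SAP30-KO and 4 ± 0.972 (SD, n = 4) TPM in SIN3A+SIN3B-DKO, where parental was 7.84 ± 0.6 (SD, n = 2) TPM.

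The other called interferon-stimulated genes were less even. BST2, the membrane tether of budding virions, read 108, 101, 97.3 and 91.5 TPM in SAP30-KO but 66.3, 67.8, 35 and 34.6 TPM in SIN3A+SIN3B-DKO, where SIN3A+SIN3B-DKO1 was near parental (66.6 and 72.7 TPM) and SIN3A+SIN3B-DKO2 below it. Its log2 difference of 1.03 (SE 0.05, adjusted p = 5e-08) was not called with the line as the unit (adjusted p = 0.11) or without the line SIN3A+SIN3B-DKO2. GBP2, a guanylate-binding protein, and IFI44 and IFI44L, a pair of neighbouring interferon-induced genes, lie on 1p among genes that were mostly higher in SAP30-KO, and their differences of 0.77, 0.61 and 0.73 fell below the call to 0.52, 0.29 and 0.42 once the neighbours' median was subtracted. IFI44 also lost its call without any 1 of 4 libraries (SAP30-KO1 replicate 2, SAP30-KO2 replicate 2 and replicate 1 of both SIN3A+SIN3B-DKO lines), IFI44L without SIN3A+SIN3B-DKO2 replicate 1 and GBP2 without the line SIN3A+SIN3B-DKO2. IFI44 (adjusted p = 0.0779) and IFI44L (adjusted p = 0.0587) were not called with the line as the unit, nor without the line SAP30-KO1, and IFI44 not without the line SIN3A+SIN3B-DKO1. MHC class I and antigen presentation genes, which interferon also induces, had 2 of 19 members called higher and 0 lower (10.5% called, against 7.47% of all genes tested) and a median of 0.32. HLA-B read 40.8, 41.8, 36.3 and 36.6 TPM in SAP30-KO, 24.5, 23.4, 24.7 and 22.8 TPM in SIN3A+SIN3B-DKO and 38.6 and 36.9 TPM in parental. HLA-B has close paralogs, so reads could have been split between them.

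Promoter stretches of called interferon-stimulated genes are printed because a target motif of the STAT and IRF factors is known for genes of this kind. The motif GAAANNGAAA, a core of the interferon-stimulated response element, was searched on both strands in the 300 bases from 250 before to 50 after each RefSeq start (sequences of the GRCh38.p14 table). It stood in 3.57% of all 35116 promoters. Of the 9 called genes, 6 were in the table and 5 of them held it, while OAS1 did not in this window. A gene was counted if any of its promoters held the motif, whereas the share is of single promoters, so the measures differ. Members of the list that were not called were not searched, so the count is not particular to the called genes. The stretches are given 5′ to 3′ on the strand of the gene, with the match in capitals, and were placed on GRCh37 by exact match.
IFI44 (chr1:79115446-79115473, plus strand, from 28 to 1 bases before the start): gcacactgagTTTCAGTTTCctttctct
IFI44L (chr1:79085959-79085988, plus strand, from 174 to 145 bases before the start): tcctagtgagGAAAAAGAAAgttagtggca
IFI44L (chr1:79086050-79086079, plus strand, from 83 to 54 bases before the start): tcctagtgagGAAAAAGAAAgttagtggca
IFITM1 (chr11:313990-314019, plus strand, from 50 to 21 bases before the start): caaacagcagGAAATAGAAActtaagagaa
OAS3 (chr12:113376126-113376155, plus strand, from 153 to 124 bases before the start): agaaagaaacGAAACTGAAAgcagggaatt
OAS3 (chr12:113376257-113376278, plus strand, from 22 to 1 bases before the start): agccgggcggGAAAACGAAAcc
BST2 (chr19:17516547-17516576, minus strand, from 137 to 108 bases before the start): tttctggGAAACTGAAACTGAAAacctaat
The 2 stretches of IFI44L are identical in sequence, in BST2 a pair of matches overlaps, and the match in IFI44 is the motif read on the opposite strand. A match is a description of the letters and no evidence of binding.

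Genes of glycolysis and the hypoxia response that were called were also higher in SAP30-KO. Of 40 tested, 8 were called higher and 0 lower (20%), 6 of them in all 4 pairs of lines, and the median difference was 0.27. By their known roles the called members belonged mostly to the hypoxia response rather than to the enzymes of glycolysis. Binding of hypoxia-inducible factor was not measured. CA9, the tumour-associated carbonic anhydrase, read 7.6, 6.47, 6.78 and 7.62 TPM in SAP30-KO and 2.42, 1.67, 0.0764 and 0.0781 TPM in SIN3A+SIN3B-DKO, with 1.43 and 0.919 TPM in parental cells. Its log2 difference of 2.66 (SE 0.15, adjusted p = 1.7e-07) was the largest of the list, but SIN3A+SIN3B-DKO1 stayed near or above parental while SIN3A+SIN3B-DKO2 had 1 read per library, and the call was lost with the line as the unit (adjusted p = 0.0835). CA12, a second membrane carbonic anhydrase, read 61.4, 63.5, 56.9 and 56.2 TPM in SAP30-KO and 27.2, 25.7, 20.8 and 22.9 TPM in SIN3A+SIN3B-DKO (log2 difference 1.29, SE 0.05, adjusted p = 9.1e-09). Parental lay between the genotypes at 35.6 and 39.4 TPM. P4HA1, a collagen prolyl hydroxylase subunit, read 106, 106, 101 and 108 TPM in SAP30-KO and 49, 52.3, 47.4 and 48.8 TPM in SIN3A+SIN3B-DKO, and SAP30-KO was close to the 99.6 and 95.5 TPM of parental (log2 difference 1.09, SE 0.03, adjusted p = 3.3e-09). Its relative P4HA2 differed by 0.97. EGLN3, a prolyl hydroxylase that marks hypoxia-inducible factor for degradation, read 10.8, 11.7, 13 and 14.4 TPM in SAP30-KO and 6.31, 5.85, 4.28 and 5.66 TPM in SIN3A+SIN3B-DKO, with parental below both at 4.04 and 4.62 TPM. PFKFB4, which sets the level of a regulator of glycolysis, differed by 0.70, the mitophagy receptor BNIP3 by 0.60 and the stress gene NDRG1 by 0.84, of which BNIP3 and NDRG1 were not called without the line SIN3A+SIN3B-DKO2. BNIP3 also lost its call without SAP30-KO1 replicate 2 or without SIN3A+SIN3B-DKO1 replicate 1, and NDRG1 with the line as the unit.

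The core of the hypoxia response element, ACGTG, was searched in the same way. It is short and stood in 21.4% of all promoters, again a share of single promoters, whereas genes were counted by any of their promoters. Of the 8 called genes 7 were in the table, and CA9, BNIP3 and P4HA1 held it, whereas PFKFB4, CA12, EGLN3 and P4HA2 did not in this window. The 3 stretches are shown because these genes are the ones whose window holds the motif.
CA9 (chr9:35673895-35673923, plus strand, from 30 to 2 bases before the start): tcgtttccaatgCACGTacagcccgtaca
BNIP3 (chr10:133795544-133795573, minus strand, from 146 to 117 bases before the start): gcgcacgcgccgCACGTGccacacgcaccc
P4HA1 (chr10:74856694-74856722, minus strand, from 98 to 70 bases before the start): tgtgatcgagctCACGTagcgagggctgc
In CA9 and P4HA1 the letters CACGT are the motif read on the opposite strand, and in BNIP3 the palindrome CACGTG matches on both strands.

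**Figure D3:**
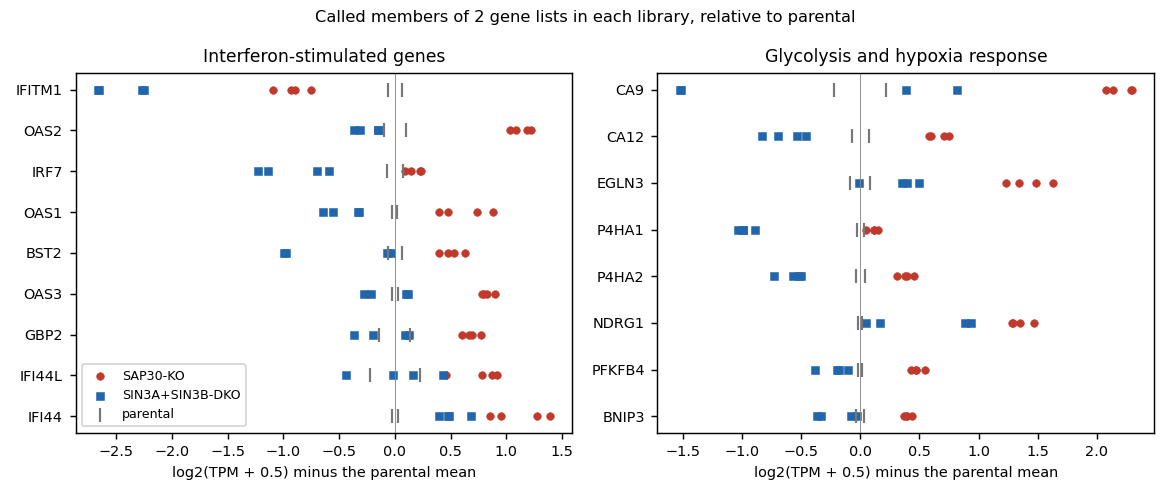
log2(TPM + 0.5) minus the parental mean in each library for the called members of the interferon (9 genes) and hypoxia (8 genes) lists, with SAP30-KO as circles, SIN3A+SIN3B-DKO as squares and parental as bars. Circles lie to the right of squares for every gene, though nearly touching for IFI44L; IFITM1 alone has both groups below parental, and the squares of CA9, BST2 and NDRG1 split by line.

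In the TGF-beta and BMP pathway 7 of 36 members tested were higher in SAP30-KO and 2 were lower (25% called), with a median of 0.13. SMAD6, an inhibitory SMAD that dampens BMP signalling, read 26.9, 25.4, 28 and 27.6 TPM in SAP30-KO and 9.10, 9.62, 8.58 and 9.15 TPM in SIN3A+SIN3B-DKO, with parental between them at 16.1 and 16.9 TPM (log2 difference 1.52, SE 0.05, adjusted p = 7.8e-09). The 2 lower members were secreted antagonists. FST, the activin-binding protein follistatin, read 71.7, 76.5, 72.7 and 76.7 TPM in SAP30-KO and 163, 162, 168 and 141 TPM in SIN3A+SIN3B-DKO, and NOG, the BMP antagonist noggin, read 58.3, 55.2, 66.5 and 68.7 and 129.8, 127, 124 and 107 TPM. No library of 1 genotype overlapped the other for SMAD6, FST or NOG, as for 35.6% of all genes tested, and all 3 were called in all 4 pairs of lines. GDF15, a stress-induced ligand, differed by 0.96 but was not called with the line as the unit. Of the other higher members, ID4, a BMP target (0.94), SMAD7, the inhibitory SMAD of TGF-beta signalling (0.80), and BMP1, a procollagen protease (0.65), were also called with the line as the unit, whereas the ligand TGFB3 (0.87) and the co-receptor TGFBR3 (0.72) were not. TGFBR3, on 1p, was also not called after the neighbours' median was subtracted or without SIN3A+SIN3B-DKO2. In the Notch pathway 2 of 18 were higher and 0 lower (11.1% called, against 7.47% of all genes tested, median 0.08). These were LFNG, a glycosyltransferase that modifies Notch receptors, at 16.9 ± 0.714 (SD, n = 4) against 8.81 ± 1.69 (SD, n = 4) TPM, and HES1, a transcriptional target of Notch, at 27.3 ± 1.80 (SD, n = 4) against 16.2 ± 2.02 (SD, n = 4) TPM. In the WNT pathway 3 of 34 were higher and 1 lower (11.8% called, median 0.14). The lower one, RNF43, a ubiquitin ligase that removes WNT receptors, read 0.701, 0.905, 0.683 and 0.777 TPM in SAP30-KO and 3.10, 2.63, 2.24 and 2.88 TPM in SIN3A+SIN3B-DKO. The higher ones were TCF7L1 (0.79), LGR5 (0.78) and FZD8 (0.66), none of them called with the line as the unit. Among EGFR family receptors and ligands 1 of 12 was higher and 1 lower. These were the ligands EGF (0.80, not called with the line as the unit) and AREG, which read 0.225, 0.156, 0.193 and 0.0986 TPM in SAP30-KO and 1.14, 1.05, 1.44 and 0.637 TPM in SIN3A+SIN3B-DKO (log2 difference -1.21, SE 0.19, adjusted p = 0.0004).

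Cytokines and chemokines had 1 of 19 members higher and 4 lower (26.3% called), with a median of -0.31. IL24 and IL8, described above, led the lower ones, and CXCL1, a related chemokine, followed at -0.61 with overlapping libraries and a call that was lost without any 1 of the lines SAP30-KO1, SAP30-KO2 and SIN3A+SIN3B-DKO1 and without any 1 of 4 libraries. IL32, a proinflammatory cytokine, was at -0.60 and not called with the line as the unit, without SAP30-KO1 or without SIN3A+SIN3B-DKO1, nor without any 1 of 2 libraries (SAP30-KO1 replicate 1 and SIN3A+SIN3B-DKO1 replicate 2) or after the neighbours' median was subtracted. CSF3 was the higher one at 0.77, a difference that rested on SIN3A+SIN3B-DKO2 replicate 2 (1.53, 1.61, 1.41 and 0.274 TPM in SIN3A+SIN3B-DKO against 1.89, 2.12, 2.44 and 2.42 TPM in SAP30-KO) and was not called without that library. It was also not called without SAP30-KO2 or without SIN3A+SIN3B-DKO2, or with the line as the unit. Of 21 NF-kappaB pathway genes 2 were higher and 3 lower (median 0.05). BCL3, a nuclear IkappaB protein, was higher at 23.8 ± 1.39 (SD, n = 4) against 13.6 ± 2.27 (SD, n = 4) TPM, and RELA, the p65 subunit, was lower at 81 ± 2.06 (SD, n = 4) against 129 ± 13.5 (SD, n = 4) TPM. RELA and BIRC3 (-0.69) lie on 11q and were not called after the neighbours' median was subtracted, nor without SIN3A+SIN3B-DKO1. ICAM1, an adhesion molecule induced by NF-kappaB, was the third lower member at -0.64, with overlapping libraries (30.2, 29.9, 25.3 and 25.4 TPM in SAP30-KO and 58.1, 63.1, 34.1 and 28.1 TPM in SIN3A+SIN3B-DKO). Its difference came from SIN3A+SIN3B-DKO1, was -0.16 without that line and was not called with the line as the unit (adjusted p = 0.263), without SAP30-KO2 or without SIN3A+SIN3B-DKO2 replicate 1. CD40, a receptor upstream of NF-kappaB, differed by 0.80 but was not called with the line as the unit, without SAP30-KO1 or without SIN3A+SIN3B-DKO2. Of 25 immediate early and MYC genes 3 were higher and 3 lower. DUSP1, a phosphatase of MAP kinases, was lower at -0.98, ATF3, a stress-induced factor, at -0.75 and MYC at -0.64, whereas the zinc finger factors EGR3, EGR1 and EGR2 were higher at 0.80, 0.68 and 0.67. Of these 6 only ATF3 was called with the line as the unit, and EGR1 was not called without SAP30-KO1 or without SIN3A+SIN3B-DKO2. MYC was not called without SIN3A+SIN3B-DKO1 or SIN3A+SIN3B-DKO2 replicate 1, and EGR2 not without SIN3A+SIN3B-DKO2 or its replicate 2 alone.

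Of 19 collagens tested, the main fibrous proteins of the matrix, 3 were higher and 2 lower (median 0.23). COL6A1, a chain of the microfibrillar collagen VI, read 46.8, 44.7, 39.1 and 39.3 TPM in SAP30-KO and 11, 10.7, 12.4 and 11.1 TPM in SIN3A+SIN3B-DKO, with parental above both at 53.3 and 54.8 TPM (log2 difference 1.86, SE 0.04, adjusted p = 3e-10). COL5A1 and COL7A1 were higher by 0.82 and 0.78. COL5A2 (-0.94) and COL12A1 (-0.59) were lower, though neither was called with the line as the unit and neither without SIN3A+SIN3B-DKO2. COL12A1 was also not called without SAP30-KO1 or without any 1 of 3 libraries (replicate 2 of both SAP30-KO lines and of SIN3A+SIN3B-DKO2). Of 22 integrins and laminins 3 were higher and 0 lower (median 0.22), and these were ITGB4 and the laminin alpha chains LAMA4 (0.81) and LAMA5 (0.80), which are ligands of integrins. LAMA4 was not called with the line as the unit. Mesenchymal genes had 3 of 16 higher and 2 lower. FN1, the matrix protein fibronectin, was lower at 220.1, 187, 218 and 210.3 TPM in SAP30-KO and 363, 376, 325 and 329.6 TPM in SIN3A+SIN3B-DKO (log2 difference -0.74, SE 0.05, adjusted p = 1.2e-06), and only SIN3A+SIN3B-DKO of the 2 genotypes lay clear of the 231 and 213 TPM of parental. S100A4, a calcium-binding protein, was higher by 0.80, and PRRX1, a homeobox factor of mesenchyme, read 1.67, 1.62, 1.5 and 1.53 TPM in SAP30-KO and 0.116, 0.091, 0 and 0 TPM in SIN3A+SIN3B-DKO. TGFBI, a TGF-beta-induced matrix protein, read 16.6, 17, 15.9 and 16.9 TPM in SAP30-KO and 5.83, 5.72, 17.7 and 19.8 TPM in SIN3A+SIN3B-DKO, so that its difference of 0.64 came from SIN3A+SIN3B-DKO1 and turned to -0.17 without that line. TGFBI was not called with the line as the unit (adjusted p = 0.464) or after the neighbours' median was subtracted. TAGLN was the second lower member.

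Of 28 epithelial junction and keratin genes 4 were higher and 5 lower (32.1% called, median -0.24). F11R, the junctional adhesion molecule A, read 7.71, 8.25, 6.07 and 6.65 TPM in SAP30-KO and 21.4, 21.5, 20.9 and 18.3 TPM in SIN3A+SIN3B-DKO, where it was close to the 22.1 and 22.3 TPM of parental (log2 difference -1.46, SE 0.06, adjusted p = 1.8e-08). DSP, the desmosomal protein desmoplakin, read 18.4, 15.1, 14.3 and 14.2 TPM in SAP30-KO and 31.3, 31.5, 33.1 and 36.5 TPM in SIN3A+SIN3B-DKO, with parental above both at 77 and 71.2 TPM. The higher members KRT81, a hair keratin, and CLDN4, a claudin, differed by 2.22 and 1.69, but the SIN3A+SIN3B-DKO lines were far apart. KRT81 read 6.60, 7.37, 46.3 and 42.7 TPM and CLDN4 30.8, 30.3, 8.54 and 5.39 TPM in the SIN3A+SIN3B-DKO libraries, and neither was called with the line as the unit. The other called members were KRT17 (0.93) and JUP (0.61), both higher, and OCLN (-0.90), CLDN1 and CGN (-0.68), all lower, and of these OCLN, the tight junction protein occludin, was the only one also called with the line as the unit. JUP was also not called without SIN3A+SIN3B-DKO1 or without any 1 of 4 libraries (replicate 2 of both SAP30-KO lines, SIN3A+SIN3B-DKO1 replicate 1 and SIN3A+SIN3B-DKO2 replicate 2), and CGN not without SIN3A+SIN3B-DKO2. Among 25 matrix proteases and inhibitors 3 were higher and 4 lower. ADAMTS6, a secreted metalloprotease, was lower at 2.41, 1.79, 1.61 and 1.97 TPM in SAP30-KO and 6.19, 6.12, 6.03 and 5.29 TPM in SIN3A+SIN3B-DKO. MMP1, an interstitial collagenase, read 3.99, 3.83, 1.92 and 2.38 TPM in SAP30-KO and 14.6, 16.1, 2.49 and 2.77 TPM in SIN3A+SIN3B-DKO, and its difference of -1.04 turned to 0.13 (adjusted p = 0.373) without SIN3A+SIN3B-DKO1 and was not called with the line as the unit. MMP24 (-0.80) and MMP16 (0.74) were not called without SIN3A+SIN3B-DKO2. ADAMTS1, a second protease of this family, was lower at -0.69 and called with the line as the unit, whereas ADAMTS7 (0.72) was not, and the protease inhibitor TIMP3 was higher by 0.61, with no call without SAP30-KO2, without SIN3A+SIN3B-DKO2 replicate 1 or after the neighbours' median was subtracted. Of 28 genes of actin and contraction 2 were higher and 3 lower, with RHOB, a small GTPase, higher by 0.99 and ACTG2, a smooth muscle actin, by 0.64, and TAGLN, RDX and the calponin CNN1 (-1.16) lower. ACTG2 and CNN1 were not called with the line as the unit. ACTG2 overlapped between the genotypes (1.67, 1.74, 3.69 and 3.94 TPM in SAP30-KO and 1.86, 2.32, 1.25 and 0.82 TPM in SIN3A+SIN3B-DKO), was lower in SAP30-KO1 than in SAP30-KO2 by limma (-0.97, adjusted p = 0.0129), and was not called without SAP30-KO2, without SIN3A+SIN3B-DKO2, or without SIN3A+SIN3B-DKO1 replicate 1 or SIN3A+SIN3B-DKO2 replicate 2.

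A set of 6 genes of angiogenesis and migration was singled out in the study as activated, and one of 3 genes as repressed, by SAP30 and SIN3A/3B together. These were chosen on these libraries against parental, so their direction from parental is not independent evidence, and only the direct difference is described. RDX, the membrane-actin linker radixin, read 40.7, 38.5, 37.3 and 39.3 TPM in SAP30-KO and 61.8, 61.7, 64 and 74.4 TPM in SIN3A+SIN3B-DKO, against 140.2 and 137 TPM in parental. PDGFD, a platelet-derived growth factor, read 2.61, 2.29, 2.61 and 2.05 TPM in SAP30-KO and 3.57, 4.17, 3.66 and 5.04 TPM in SIN3A+SIN3B-DKO, against 8.32 and 8.15 TPM in parental. Both were lower in SAP30-KO than in SIN3A+SIN3B-DKO, with a log2 difference of -0.74 (SE 0.05, adjusted p = 4.2e-07) for RDX and a log2 difference of -0.67 (SE 0.12, adjusted p = 0.00091) for PDGFD. RDX and PDGFD lie on 11q, and with the neighbours' median subtracted they differed by -0.24 and -0.18 and were not called. PDGFD was also not called without SIN3A+SIN3B-DKO2 replicate 2. CLDN1, a tight junction claudin, was lower, at -0.85, with overlapping libraries (1.01, 1.01, 0.728 and 0.53 TPM in SAP30-KO and 2.86, 2.47, 0.998 and 1.51 TPM in SIN3A+SIN3B-DKO), and was not called with the line as the unit or without SIN3A+SIN3B-DKO1.

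The other 3 of the 6 were not called. PDGFB differed by -0.05 (95% confidence interval from -0.37 to 0.27), ADM2, a peptide of the adrenomedullin family, by 0.05 (95% confidence interval from -0.30 to 0.40) and the receptor NOTCH3 by 0.10 (95% confidence interval from -0.21 to 0.42). Of the 3 genes named as repressed, ARTN, a neurotrophic ligand, was higher in SAP30-KO at 19.6, 20, 22 and 20.7 TPM than in SIN3A+SIN3B-DKO at 13.4, 14.7, 11.2 and 8.05 TPM (log2 difference 0.81, SE 0.10, adjusted p = 4.6e-05), though it was not called with the line as the unit (adjusted p = 0.068) or without SIN3A+SIN3B-DKO2. IPO13, a nuclear import receptor, differed by 0.21 (95% confidence interval from 0.10 to 0.31) and HSPA6, an inducible HSP70, by -0.15 (95% confidence interval from -0.46 to 0.16), and neither was called. In the wider list of angiogenic ligands and receptors 3 of 35 were higher and 5 lower (22.9% called, median 0.05). PGF, the placental growth factor that binds VEGFR1, read 68.9, 68.3, 85.6 and 84.8 TPM in SAP30-KO and 36.5, 35.1, 32.3 and 31.6 TPM in SIN3A+SIN3B-DKO, with 29 and 22.7 TPM in parental (log2 difference 1.17, SE 0.06, adjusted p = 8.6e-08). FGF1, an acidic fibroblast growth factor, went the other way at 4.43, 4.41, 3.86 and 4.06 TPM in SAP30-KO and 13.3, 13.1, 9.82 and 10.4 TPM in SIN3A+SIN3B-DKO, with parental between at 7.54 and 7.80 TPM (log2 difference -1.37, SE 0.05, adjusted p = 1e-08). ANGPTL4, a secreted lipase inhibitor, was higher by 0.83 but was not called with the line as the unit or without SIN3A+SIN3B-DKO1. The endothelial receptor TIE1 was lower, at -0.78. It was under 1 TPM in every SAP30-KO, SIN3A+SIN3B-DKO and parental library, with at most 1 read in each SAP30-KO library. ANGPT1, a ligand of the TIE2 receptor, was higher by 0.74 and called with the line as the unit. VEGFB (-0.65), which lies on 11q and was not called after the neighbours' median was subtracted or without SIN3A+SIN3B-DKO1, and SEMA3F (-0.61) were lower. SEMA3F was not called with the line as the unit, without SAP30-KO2, without SIN3A+SIN3B-DKO2 or without SAP30-KO1 replicate 2.

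**Figure D4:**
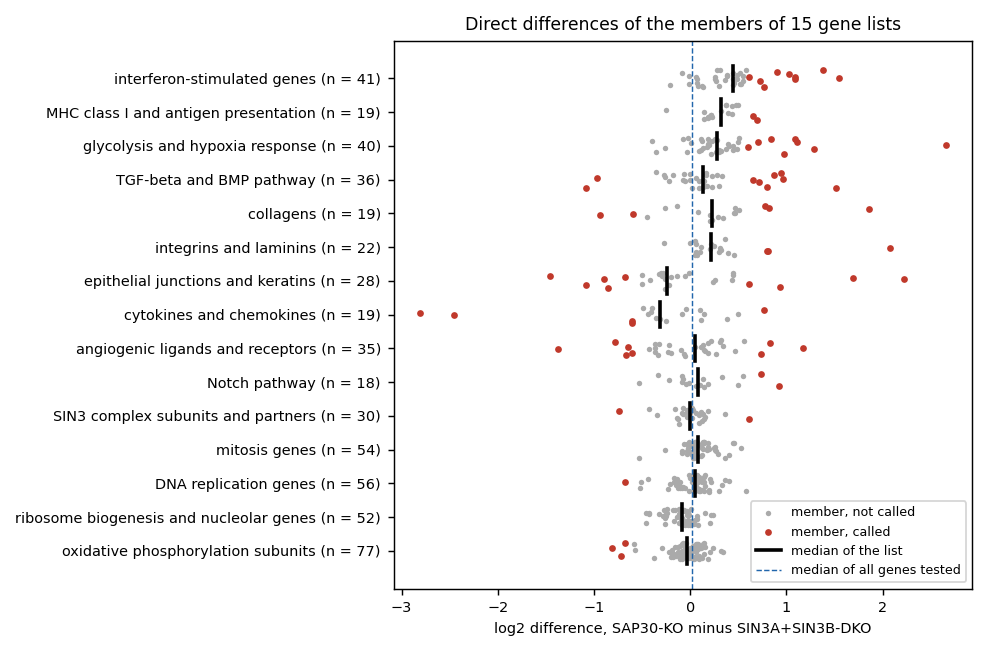
Difference (SAP30-KO minus SIN3A+SIN3B-DKO, log2) of each member of 15 gene lists, with called members in red, the list's median as a black bar and the median of all genes tested (0.02) as a dashed line. The interferon, MHC class I and hypoxia medians (0.44, 0.32 and 0.27) lie to the right, the cytokine median (-0.31) to the left, and the mitosis and ribosome biogenesis lists hold no called member.

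Apart from SAP30, SIN3A and SIN3B, described above, genes of the complex and of the machinery of growth differed little. Of 30 SIN3 complex subunits and partners tested, a list without SAP30, 1 was higher in SAP30-KO and 1 lower (6.67%, near the 7.47% of all genes), with a median of 0.00. BRMS1, a subunit that represses metastasis genes, was lower at 61.1 ± 2.19 (SD, n = 4) against 103 ± 3.10 (SD, n = 4) TPM and lies on 11q, where it was not called after the neighbours' median was subtracted (-0.22). MXD4, a MAD family factor that brings SIN3 to DNA, was higher at 42.4 ± 4.13 (SD, n = 4) against 27.6 ± 2.94 (SD, n = 4) TPM, a difference not called without the line SIN3A+SIN3B-DKO2 or its replicate 2 alone, without SAP30-KO1 replicate 1 or without SAP30-KO2. Of 48 chromatin enzymes, HDAC11, a class IV deacetylase, was higher by 0.99 and MEN1, the scaffold menin of the MLL1 complex, lower at -0.78, and MEN1 lies on 11q and was at -0.23 without a call after subtraction. MLL (also called KMT2A), the MLL1 methyltransferase gene, read 31.6, 23, 35.4 and 31.3 TPM in SAP30-KO and 42.9, 44.2, 43.9 and 55.7 TPM in SIN3A+SIN3B-DKO, and its difference of -0.62 was not called without SIN3A+SIN3B-DKO2 replicate 2 or replicate 2 of either SAP30-KO line, nor without the line SAP30-KO1 or SIN3A+SIN3B-DKO2. No position was matched to MLL, so no neighbours' median was subtracted, and whether it shared a shift with its neighbours was not tested. No member was called by limma among 54 mitosis genes (median 0.08, 0.53 at ASPM, a spindle pole protein), where 30 had an unadjusted p under 0.05 and 0 were called by voom on the recovered reads. The same held for 52 genes of ribosome biogenesis (median -0.08, -0.46 at TAF1D on 11q, with 30 at an unadjusted p under 0.05 and 0 were called by voom). An unadjusted p under 0.05 by limma was common, at 7428 of all 13540 genes tested, so these counts are not particular to the 2 lists. Of 56 DNA replication genes 0 were higher and 1, POLA2, lower (-0.68), and of 77 oxidative phosphorylation subunits 0 were higher and 3 lower, NDUFV1 (-0.81), ATP5L (-0.72) and SDHD (-0.68). POLA2, NDUFV1 and SDHD lie on 11q and were not called after subtraction. No position was matched to the symbol ATP5L, so it did not go through the subtraction and is no exception to the other subunits. Of 26 CDK inhibitors and p53 targets CDKN2C was the 1 member called (0.62).

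HSPA5, the endoplasmic reticulum chaperone BiP, was the 1 called gene of 29 chaperones (3.45%, under the 7.47% of all genes tested), at 758, 783, 694 and 724 TPM in SAP30-KO and 1654, 1792, 1485 and 939.7 TPM in SIN3A+SIN3B-DKO (log2 difference -0.95, SE 0.11, adjusted p = 3e-05), and SIN3A+SIN3B-DKO2 replicate 2 was near the 945 and 957 TPM of parental. DDIT3, a stress factor downstream of ATF4, was lower at -0.74, but not called with the line as the unit, without SAP30-KO2 or without SIN3A+SIN3B-DKO1. Of 27 cholesterol genes tested, the sterol enzymes DHCR7 (-0.59) and SC5DL (-0.68) were lower and 1 was higher. DHCR7 lies on 11q and was not called after subtraction, nor without any 1 of 4 libraries. No position was matched to SC5DL, so whether its difference was shared by its neighbours was not tested. GLUL, glutamine synthetase, read 18.8, 19.5, 21 and 21.2 TPM in SAP30-KO and 13.6, 14.9, 0.144 and 0.172 TPM in SIN3A+SIN3B-DKO, so that its difference of 2.73 came from SIN3A+SIN3B-DKO2 and was not called without it. GLUL and DDIT3 were the 2 called of 30 genes of amino acid synthesis and ATF4 targets (6.67%, also under that share). The metallothioneins MT1A (1.26) and MT1X (0.62) were higher of 7 tested, though MT1A was not called without SIN3A+SIN3B-DKO1 and MT1X not without SIN3A+SIN3B-DKO2, and metallothioneins are close paralogs. Of 10 neuronal genes bound by REST, L1CAM and STMN3 were higher (0.84 and 0.59), of 11 HOX genes HOXA13 and HOXC6 (0.69 and 0.64) and of 19 histone genes HIST1H2AG and HIST1H2AC (0.78 and 0.65). L1CAM, STMN3, HOXA13 and HIST1H2AG were not called with the line as the unit, nor HOXC6 and HIST1H2AC without SIN3A+SIN3B-DKO1 replicate 2.

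A list of 53 genes, called germline and cancer-testis genes here, also held secreted cystatins. Of its members 12 passed the filter, and 4 of these were higher and 3 lower (58.3% called, median -0.04). Silent members enter only where a line expresses them, so this share describes the tested members alone. The higher ones were DCAF8L2 and the cystatins CST2, CST1 (1.5) and CST4 (1.16), and the lower ones MAGEC1, MAGEC2 (-0.95) and DCAF8L1 (-1.48). CST1 read 236, 258, 261 and 290.2 TPM in SAP30-KO and 136, 141, 59.7 and 62.4 TPM in SIN3A+SIN3B-DKO, without overlap, but neither it nor CST4, MAGEC2 or DCAF8L1 was called with the line as the unit. MAGEC2 read 1.05, 1.16, 0.6 and 0.551 TPM in SAP30-KO and 5.02, 3.59, 1.07 and 0.669 TPM in SIN3A+SIN3B-DKO, and DCAF8L1 read 0, 0, 0 and 0 and 2.93, 3.89, 0 and 0 TPM. The differences of both came from SIN3A+SIN3B-DKO1, and without that line they were -0.05 and 0, with no call. The clustered protocadherins, cell-surface adhesion proteins whose variable exons are spliced to shared constant exons, were noticed after the values were seen. Of 51 tested on 5q, 42 were higher in SAP30-KO and 0 lower, which is 7.34% of all genes called higher. The 15 alpha genes tested differed by 1.36 to 2.14, with a median over genes of 1.40 to 1.93 TPM in the SAP30-KO libraries, 0.0454 to 0.231 TPM in SIN3A+SIN3B-DKO and 0.183 to 0.214 TPM in parental. Of these 15, 0 reached 1 TPM in 2 libraries outside SAP30-KO, so the minimum for testing fixed their direction and their count is a description. Of 22 gamma genes 21 were higher, with differences from 0.56 to 0.63, and of 14 beta genes, which have no shared exon, 6 were higher, with differences from -0.29 to 1.29. Reads from the shared exons can be counted for every alpha or every gamma gene, so these members are close to 1 measurement per cluster rather than separate ones.

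Positions from the GRCh37 annotation were found for 12021 of the genes tested (88.8%). Genes without a matched position, among them MLL, SC5DL and ATP5L, are counted on no arm below. On 11q 161 of 454 genes were lower in SAP30-KO (35.5%) and 2 were higher, with a median difference of -0.50, and 92.5% of its genes lay below 0. On all other arms together 221 of 11567 were lower (1.91%). The median of 11q relative to parental was -0.53 in SAP30-KO and -0.05 in SIN3A+SIN3B-DKO. In single libraries it ran from -0.55 to -0.51 in SAP30-KO and from -0.08 to -0.03 in SIN3A+SIN3B-DKO, so both SAP30-KO lines shared the shift. Along the arm, windows of 10 Mb from 50 to 80 Mb had medians of -0.46 to -0.43 from parental in SAP30-KO and 0.05 to 0.12 in SIN3A+SIN3B-DKO. The window from 80 to 90 Mb, with 19 genes, had a direct difference of -0.01. From 90 Mb to the end the medians were -0.89 to -0.69 in SAP30-KO and -0.42 to -0.20 in SIN3A+SIN3B-DKO, lower in both. With a running median of 51 neighbouring genes subtracted, 12 genes of 11q were lower and 17 higher, and in all 255 genes were lower and 454 higher, against 384 and 533 for the same 12021 genes fitted with nothing subtracted. Whether the shift of 11q reflects DNA copy number was not tested.

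A weaker shift in the other direction was seen on 1p. Between 40 Mb and the centromere 41 of 347 genes were higher in SAP30-KO (11.8%) and 7 lower, with a median of 0.29. In the remainder of the arm 16 of 329 were higher (4.86%) and 6 lower, with a median of 0.02. The proximal stretch had medians from parental of 0.30 to 0.39 in the single SAP30-KO libraries and 0.04 to 0.13 in SIN3A+SIN3B-DKO. Of the genes called higher and named here, ARTN, IGSF3, CDKN2C, GSTM2, GBP2, IFI44, IFI44L and TGFBR3 lie there, and of these ARTN, IGSF3 and GSTM2 were still called with the neighbours' median subtracted. TIE1, lower in SAP30-KO, lies there too. The other arms had medians between -0.04 and 0.06 in the direct comparison, also where both genotypes had moved from parental, such as 16q (-0.44 in SAP30-KO and -0.43 in SIN3A+SIN3B-DKO) and Xq (0.57 and 0.50).

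**Figure D5:**
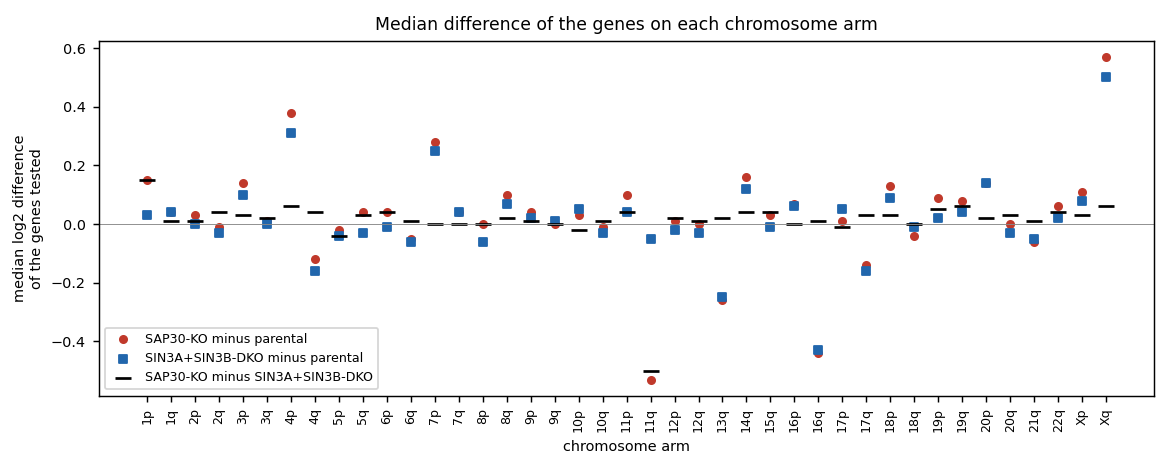
Median log2 difference of the genes tested on each chromosome arm for SAP30-KO minus parental (circles), SIN3A+SIN3B-DKO minus parental (squares) and SAP30-KO minus SIN3A+SIN3B-DKO (bars). On most arms circle and square lie together and the bar is near 0; on 11q the circle (-0.53) and bar (-0.50) stand apart from the square (-0.05), and on 1p the bar is at 0.15.

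Markers of cell types were examined in the libraries compared. All 8 markers of MDA-MB-231 and mesenchymal breast cancer lines were at 1 TPM or more in both genotypes, with summed levels of 11785 to 12339 TPM in SAP30-KO and 11101 to 11647 TPM in SIN3A+SIN3B-DKO, and none was called (-0.45 at FOSL1, on 11q), although 7 of the 8 had an unadjusted p under 0.05 and 0 were called by voom. Of the 10 luminal markers 6 had a mean of at least 1 TPM in both genotypes. Luminal markers summed to 1036 to 1048 TPM in SAP30-KO and 1053 to 1242 TPM in SIN3A+SIN3B-DKO. PGR and ELF5 were at 0 in every library of both genotypes. Of the 6 luminal markers tested 0 were called (0.43 at KRT19), with 6 at an unadjusted p under 0.05 by limma and 0 called by voom. Markers of other cell types were low. Endothelial markers summed to 4.81 to 6.68 TPM in SAP30-KO and 4.35 to 6.06 TPM in SIN3A+SIN3B-DKO, with CDH5 at 0 in all 8 libraries, and 1 of 2 tested, PECAM1, was higher by 0.64 but not called with the line as the unit. Leukocyte markers summed to 9.99 to 11.3 and 5.05 to 6.76 TPM, with CD3E at 0 in all 4 SAP30-KO libraries, and 2 of the 3 tested, CSF1R (1.29) and CD14 (0.71), were higher in SAP30-KO. Fibroblast markers summed to 9.18 to 10.8 and 6.35 to 7.84 TPM, with 0 called of 2 tested (0.47 at COL1A1), 2 at an unadjusted p under 0.05 and 0 were called by voom. Over all genes, 7428 of the 13540 tested had an unadjusted p under 0.05 by limma. The part of other cell types in the results was not tested.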

How the data were processed

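RNA-Seq was done on untreated MDA-MB-231 lines, 2 libraries per line, as KAPA mRNA libraries sequenced on an Illumina NextSeq. The submitters' processing notes name FastQC 0.11.2, TopHat, featureCounts and the build hg19. Whether the counting used strand is not given in the sources used here. The authors deposited 1 table of 19410 genes that is named RPKM, but every library sums to the same total, so the deposited values were treated as TPM. RPKM had been assumed when the test was chosen, and the same test on log2 values serves both units. Of the gene names 28 had turned into dates and were not named. Since low values move in steps of 1 read, reads could be recovered as whole numbers (tolerance 0.02 reads) for 18519 of 18519 genes with a value above 0, which gave 18415036 to 23162682 reads per library in the series. Their number limits the precision of each value, and intervals cover the spread between libraries only.

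Values were tested as log2(TPM + 0.5) with limma 3.58.1 in R 4.3.3 (mean-variance trend), with 7 line means fitted over 14 libraries (7 residual degrees of freedom) and the 2 SAP30-KO means set against the 2 SIN3A+SIN3B-DKO means. P-values were adjusted by Benjamini-Hochberg over all 13540 genes. Tables were made in Python 3.11.15 with pandas 2.3.3, and figures with matplotlib 3.10.9. Positions came from the GENCODE annotation on GRCh37, matched by symbol. The fit was tested on simulated data with known changes. Replicate numbers did not pair the libraries, since the deviations of same-numbered libraries correlated between -0.043 and 0.018. The genotypes, 40 gene lists and tests were chosen with earlier results of these data known. Genes were named by a rule: the targeted genes and those singled out in the study, the 12 described as largest in each direction, and up to 4 called members of each list with the largest differences, or the largest one where none was called. Some genes that the rule names are not reported here, though they stay in the fit and in every count. Other called members and the protocadherins were named after their values were seen. Alternatives changed the pseudocount, filter, scaling, fold minimum, libraries, unit of replication, replicate term, count model and correction for neighbouring genes. Leaving out 11q and leaving out the protocadherins were added after seeing the data.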

Additional observations from a re-analysis of the deposited data

Results flagged for a closer look

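A library stood apart from the other 3 of its genotype, by a gap to the nearest one that took more than 0.829 of the range (Dixon's limit for 4), in 16 of the groups of 4 checked for the named genes, where chance gives about 1 in 20, or 15. Of the 16, 9 were libraries of SIN3A+SIN3B-DKO2. SIN3A+SIN3B-DKO2 replicate 2 was the highest for MLL (0.885, with 55.7 TPM against 42.9 to 44.2). SIN3A+SIN3B-DKO2 replicate 1 was the highest for PDGFB (0.837, with 0.381 TPM against 0.103 to 0.141), CD22 (0.832, with 21.5 TPM against 20.1 to 20.3) and OCLN (0.859, with 8.82 TPM against 7.92 to 8.04). SAP30-KO1 replicate 2 was the highest for KRTAP2-3 (0.952, with 5.45 TPM against 3.87 to 3.93). SIN3A+SIN3B-DKO2 replicate 2 was the lowest for F11R (0.83, with 18.3 TPM against 20.9 to 21.5), ADAMTS6 (0.835, with 5.29 TPM against 6.03 to 6.19), CNN1 (0.871, with 0.612 TPM against 1.4 to 1.56), CSF3 (0.903, with 0.274 TPM against 1.41 to 1.61) and EGR2 (0.835, with 0.193 TPM against 0.449 to 0.51). SAP30-KO2 replicate 2 was the highest for COL7A1 (0.97, with 17.0 TPM against 14.9 to 15) and KRT17 (0.9, with 2.64 TPM against 2.36 to 2.38). SAP30-KO1 replicate 2 was the lowest for BCL3 (0.832, with 21.8 TPM against 24.3 to 24.8), RELA (0.906, with 77.9 TPM against 81.8 to 82.3) and CSF1R (0.945, with 3.85 TPM against 4.16 to 4.18). SIN3A+SIN3B-DKO1 replicate 2 was the lowest for HIST1H2AC (0.912, with 9.04 TPM against 12 to 12.3).

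The SIN3A+SIN3B-DKO lines, 2 libraries each, differed from each other at 34 of the 155 named genes by limma over all genes, against 2.23% of all genes tested. Most named genes were chosen for their difference from SAP30-KO in these same libraries. That choice favours genes that moved in 1 of the SIN3A+SIN3B-DKO lines, so the 2 shares cannot show an excess. The log2 difference of SIN3A+SIN3B-DKO1 minus SIN3A+SIN3B-DKO2 was above 0 for CLDN1 (0.86, adjusted p = 0.0196), DCAF8L2 (2.46, adjusted p = 1e-06), BATF (1.01, adjusted p = 0.0192), CST2 (0.63, adjusted p = 0.0461), GSTM2 (0.98, adjusted p = 0.0332), SHISA3 (0.70, adjusted p = 0.0131), IL8 (0.64, adjusted p = 0.00762), LSR (0.71, adjusted p = 0.0147), CLDN4 (2.09, adjusted p = 0.00015), MMP1 (2.34, adjusted p = 7.4e-07), MMP16 (0.70, adjusted p = 0.0293), CD40 (1.19, adjusted p = 0.00128), BIRC3 (0.74, adjusted p = 0.00049), GDF15 (1.32, adjusted p = 0.00581), CA9 (2.13, adjusted p = 0.00016), GLUL (4.48, adjusted p = 9.4e-11), CST1 (1.18, adjusted p = 1.9e-06), BST2 (0.94, adjusted p = 1.8e-05), NDRG1 (0.81, adjusted p = 5.7e-06), ACTG2 (0.76, adjusted p = 0.00376), ICAM1 (0.96, adjusted p = 0.00023), MAGEC2 (1.81, adjusted p = 0.00015), DCAF8L1 (2.96, adjusted p = 1.1e-05) and CST4 (0.95, adjusted p = 0.00178). It was below 0 for SLC12A7 (-1.27, adjusted p = 0.00037), MAGEC1 (-0.83, adjusted p = 0.00329), ANGPTL4 (-0.65, adjusted p = 0.00775), KRT81 (-2.59, adjusted p = 2.6e-09), COL5A2 (-0.74, adjusted p = 0.0243), MT1A (-1.76, adjusted p = 0.00096), L1CAM (-0.81, adjusted p = 7.9e-06), KRT19 (-0.91, adjusted p = 2.3e-05), JUP (-0.68, adjusted p = 0.0196) and TGFBI (-1.61, adjusted p = 9.8e-08). SAP30-KO1 was higher than SAP30-KO2 for IL8 (0.76, adjusted p = 0.0305) and MMP1 (0.74, adjusted p = 0.0296) and lower for ACTG2 (-0.97, adjusted p = 0.0129). Since the SAP30-KO libraries are common to the contrasts with each line, a difference between the SIN3A+SIN3B-DKO lines is also the difference between the contrasts of SAP30-KO with each of them.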

How the results depend on the processing

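The direction of every named call held in all alternatives run except 3 without the line SIN3A+SIN3B-DKO1, where MMP1 turned to 0.13, TGFBI to -0.17 and DCAF8L1 to 0, and 68 of 143 named calls held in all 26 alternatives other than the 2-fold minimum. With 2-fold as the minimum 183 genes were higher and 105 lower, 85 and 47 in all 4 pairs of lines, 6 between the SAP30-KO lines and 111 between the SIN3A+SIN3B-DKO lines. With no fold minimum these were 3578, 3006, 1312, 1243, 71 and 1693. With the line as the unit 346 were higher, and 55 named genes were no longer called. With the median of 51 neighbouring genes subtracted 255 were lower, 112 of them in all 4 pairs, and the SAP30-KO lines differed at 11. Leaving out 11q, chosen after seeing the data, gave 277 lower and 124 lower in all 4 pairs, and leaving out the protocadherins gave 530 higher. With only the 8 libraries compared the SAP30-KO lines differed at 6 genes. Leaving out 1 library gave 567 to 603 higher, 419 to 478 lower, and 238 to 250 higher and 190 to 231 lower in all 4 pairs. The SAP30-KO lines then differed at 2 to 26 genes (2 without SAP30-KO1 replicate 1, 5 without its replicate 2 or SAP30-KO2 replicate 1, 6 without SAP30-KO2 replicate 2, and 11 without either library of SIN3A+SIN3B-DKO1), and the SIN3A+SIN3B-DKO lines at 203 to 425. Leaving out a whole line gave 581 to 621 higher and 431 to 515 lower, and 9 between the SAP30-KO lines without SIN3A+SIN3B-DKO1. Quantile normalization gave 501 higher and 528 lower, so that 48.7% of the calls were higher against 56.5%. Voom on recovered reads gave 700 and 557, and a pseudocount of 1 gave 463 and 373. With the replicate block 574 were higher and 441 lower, and since the numbers do not pair the libraries this is no paired test. The causes of these changes were not tested, except where fewer genes or libraries entered by construction. Genes with few reads are the least certain, since the pseudocount sets their differences.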
